A study of Homo sapiens with 12 samples.

Results

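The cytosolic ribosomal protein genes encode the proteins of the 40S and 60S subunits of the human ribosome. They were chosen by gene name alone: symbols made of RPL or RPS and a number, with or without a final A or X, plus RPLP0, RPLP1, RPLP2 and RPSA. This gave 77 of the 60583 genes in the count tables, 31 for the small (40S) and 46 for the large (60S) subunit. Of these, 72 had enough reads to be tested in each comparison. The assay was TT-seq, which labels newly made RNA with 4-thiouridine, then fragments, captures and sequences it. There were 12 libraries, 3 in each of 4 groups. Osteosarcoma cells (U2OS) and a derived line, U2OS-AsiSI, in which the DNA-cutting enzyme AsiSI is joined to part of the oestrogen receptor (AsiSI-ER), received either control siRNA (siCtrl) or siRNA against INTS11 (siINTS11), and were harvested 48 h later. Both U2OS-AsiSI groups also received 4-hydroxytamoxifen (OHT) for 1 h, which moves the nuclease into the nucleus, so the line and the OHT treatment cannot be told apart. INTS11 is the cutting subunit of Integrator, which cleaves RNA as it emerges from RNA polymerase II, and the study asked what its depletion does to transcription. Whether the replicates came from separate cultures, and whether U2OS-AsiSI is a single clone, is not given in the sources used here, so p-values measure only the spread between these libraries.

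Ribosomal protein genes are among the most strongly transcribed genes of growing cells, and most are short with many introns. Their products are needed in equal numbers, 1 copy of most proteins per ribosome, and many of the genes carry small nucleolar RNAs (snoRNAs), which guide modification of ribosomal RNA, in their introns. Their transcripts typically start with a cytosine followed by a run of pyrimidines, the terminal oligopyrimidine tract, through which translation of the mRNA responds to growth signals.

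The tract could be seen in the RefSeq promoter sequences (GRCh38.p14), which were found for 62 of the 77 genes. A cytosine followed by at least 4 C or T, starting within 10 bases of the first transcribed base on the sense strand, was present in 55 of the 62 (88.7%), against 33.3% of all 27305 promoters in that table. A tract of 8 or more bases was present in 45 (72.6%), against 9.08% of all promoters. The letters TATAAA in the 50 bases before the start were found in 2 (3.23%), RPLP0 and RPS28, and in 2.92% of all promoters. GGAAG, a core letter sequence of ETS-factor sites, occurred on either strand between 250 bases before and 50 bases after the start in 57 (91.9%) and in 71.9% of all promoters, and GGGCGG, a core of SP-factor sites, in 34 (54.8%) and 44.6%. Below are the 100 bases before and the first 20 bases of 6 members that the results turn on, with the tract in capitals: the densest member in reads (RPL10A), the least dense tested (RPS9), those with the largest rise (RPL27A in U2OS-AsiSI, RPL39 in U2OS), and those with the lowest change (RPS29 in U2OS-AsiSI, RPL7A in U2OS).
RPL10A (chr6:35468301-35468420, plus strand): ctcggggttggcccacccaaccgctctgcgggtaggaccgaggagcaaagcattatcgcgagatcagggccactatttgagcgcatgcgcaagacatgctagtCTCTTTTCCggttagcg
RPS9 (chr19:54200758-54200877, plus strand): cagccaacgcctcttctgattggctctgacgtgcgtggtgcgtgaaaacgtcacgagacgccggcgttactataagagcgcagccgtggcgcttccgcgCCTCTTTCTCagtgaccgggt
RPL27A (chr11:8682692-8682811, plus strand): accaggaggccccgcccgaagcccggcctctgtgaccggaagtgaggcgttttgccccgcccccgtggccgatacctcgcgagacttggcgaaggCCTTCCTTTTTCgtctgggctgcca
RPS29 (chr14:49598691-49598810, minus strand): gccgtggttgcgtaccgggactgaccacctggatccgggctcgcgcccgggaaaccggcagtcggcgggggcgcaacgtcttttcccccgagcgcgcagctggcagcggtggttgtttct
RPL39 (chrX:119791611-119791730, minus strand): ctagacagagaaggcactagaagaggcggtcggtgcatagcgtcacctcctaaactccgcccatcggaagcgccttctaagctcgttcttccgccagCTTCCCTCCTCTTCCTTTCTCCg
RPL7A (chr9:133348118-133348237, plus strand): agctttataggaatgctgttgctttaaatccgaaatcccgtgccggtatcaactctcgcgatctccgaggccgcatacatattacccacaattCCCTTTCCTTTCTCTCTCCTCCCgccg
No such tract started within 10 bases of the start that RefSeq gives for RPS29. A cytosine followed by at least 4 C or T does occur farther upstream in its printed window, outside the distance searched. The tract was 23 bases long in RPL7A and 22 in RPL39, the gene with the largest rise in U2OS, so long tracts were found both in a gene that was called lower and in one that was called higher. Among the 58 tested members with a promoter, the 42 with a tract of at least 8 bases had a median log2 change with siINTS11 in U2OS-AsiSI of 0.22, and the 16 with a shorter tract or none also had 0.22.

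Levels were compared between genes as reads per base, the count divided by the length of the gene span, introns included. The median tested member had 0.267 reads per base in U2OS siCtrl, against 0.0147 for the median gene tested, which placed it at percentile 99.1. Members were also short, with a median span of 5.47 kb (1.38 kb for RPL41 to 80.4 kb for RPL37A) against 30.3 kb. RPL10A, a protein of the L1 stalk of the large subunit, was densest, at 0.520 ± 0.0285 (SD, n = 3) reads per base in U2OS siCtrl and 0.60 ± 0.02 in U2OS-AsiSI siINTS11. RPLP1, which with RPLP2 and RPLP0 builds the stalk that recruits translation factors, followed at 0.493 ± 0.0322 in U2OS siCtrl. The other stalk genes were at 0.418 ± 0.0275 (RPLP0) and 0.255 ± 0.0237 (RPLP2), so proteins of 1 structure came from genes that differed in read density beyond the spread between replicates. Among members picked by role, in U2OS siCtrl, values were as follows: RPL3, next to the peptidyl transferase centre, at 0.421 ± 0.027, the S6 kinase substrate RPS6 at 0.333 ± 0.0312, the MDM2-binding proteins RPL5 and RPL11 at 0.301 ± 0.0265 and 0.311 ± 0.0274, and the Diamond-Blackfan anaemia gene RPS19 at 0.371 ± 0.0309. RPS14, the gene of the 5q deletion syndrome, stood at 0.335 ± 0.0268, the ubiquitin fusion gene RPS27A at 0.342 ± 0.0251 and RPSA, also known as the laminin receptor, at 0.347 ± 0.0308. In the order RPL5, RPL11, RPS6, RPS14, RPS27A, RPSA and RPS19, neighbours differed by less than their SDs, while RPL3 stood above RPS19 by more.

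**Figure D1:**
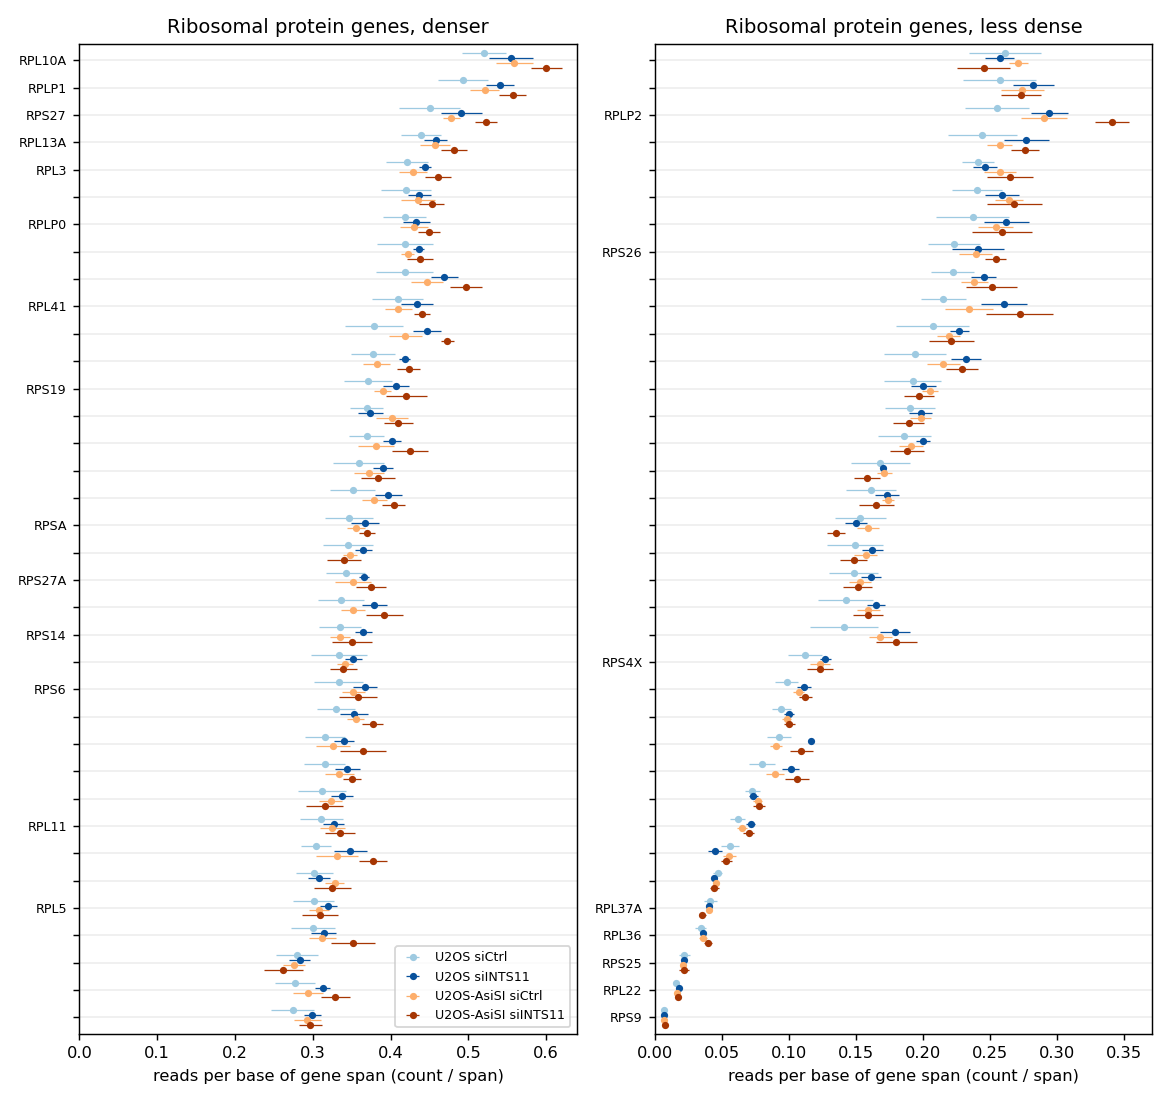
Reads per base of gene span (horizontal axes, which differ between the panels) for the 72 tested ribosomal protein genes, ordered by the mean of the U2OS siCtrl libraries, with names for the densest, the least dense and those fixed by role; points are means and bars SDs of 3 libraries per group. RPL10A is densest, between 0.520 and 0.60, and RPS9 least dense, at 0.00667 in U2OS siCtrl.

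The least dense tested members fell into different kinds of annotation. RPS9, a small-subunit protein, had 0.00667 ± 0.000809 reads per base over an annotated span of 48.2 kb (chr19:54200809-54249003), and RPL37A, a zinc-binding large-subunit protein, had 0.0411 ± 0.00493 over 80.4 kb. RPL36 shared 46.8% of its span with HSD11B1L on the same strand, and RPL22 shared 56.1% with other annotated genes. RPS25 had only 0.0218 ± 0.00407 reads per base in a span of 2.98 kb, and RPL7A 0.0559 ± 0.0069 in 3.21 kb. Of the 77 members, 28 contained 58 snoRNA genes, at most 4 each, among them RPL7A, RPL13A, RPL4 and RPL23A. The 5 members that could not be tested, among them RPS10, RPL17, RPL26 and RPL36A, had at most 1 read in any library, where a count of 0 allows up to 3 reads. From 96.5% (RPL36A) to 100% (RPS10) of their spans lay within other annotated genes on the same strand, such as the read-through gene RPS10-NUDT3 over RPS10, RPL17-C18orf32 over RPL17 and RPL36A-HNRNPH2 over RPL36A. How reads in such overlaps were counted is not given in the sources used here, and its part in these near-absent counts was not tested.

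Member counts grew less than in proportion to depth. Library totals ran from 20704611 to 38065726 counts. Within groups, the slope of ln count on ln library total had a median of 0.47 over the 72 members (0.21 for RPS18 to 0.96 for RPS25), against 1.02 over all genes with no count of 0. The slope was 0.37 in the 32 members at 0.3 to 0.5 reads per base, and 0.39 in all 120 genes at that density. At 0.1 to 0.3 it was 0.57 in the members (n = 27) and 0.79 in all 1398 genes. Members at 0.03 to 0.1 reads per base had a slope of 0.40 (n = 8), against 1.02 for all 6043 genes there. Over all genes the slope thus fell with density across these bins, while the members' slopes did not follow that order. RPL10A shows the pattern in raw counts, with 1209, 1318 and 1193 in U2OS siCtrl, 1400, 1295 and 1274 in U2OS siINTS11, 1278, 1390 and 1334 in U2OS-AsiSI siCtrl, and 1448, 1376 and 1466 in U2OS-AsiSI siINTS11. The last group, with the smallest library totals, thus did not have the lowest counts.

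**Figure D2:**
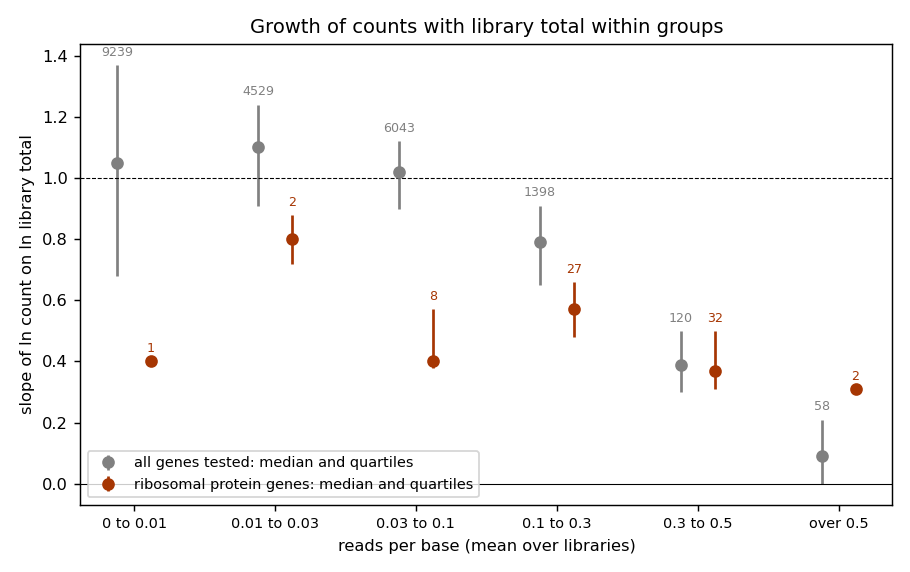
Slope of ln count on ln library total after group means were removed (vertical axis), by reads per base (horizontal axis), for all genes tested and for the ribosomal protein genes; points are medians, bars quartiles and numbers the genes in each bin. A slope of 1 (dashed) is growth in proportion to depth, and the 32 members at 0.3 to 0.5 reads per base have a median of 0.37.

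Summed over the members, counts ranged from 107652 to 130802 per library, and their share of the library also differed between groups of like depth. The sums were 115711 ± 10816 (SD, n = 3) in U2OS siCtrl, 125227 ± 4845 in U2OS siINTS11, 121192 ± 4968 in U2OS-AsiSI siCtrl and 124305 ± 7088 in U2OS-AsiSI siINTS11. The shares of all counts were 0.351% ± 0.022, 0.409% ± 0.0108, 0.393% ± 0.0246 and 0.512% ± 0.044 in that order. By library, the share in U2OS-AsiSI siINTS11 was 0.478%, 0.561% and 0.495% for totals of 26579035, 20704611 and 26175227 counts. In U2OS-AsiSI siCtrl it was 0.375%, 0.385% and 0.421% for 31374623, 32981069 and 28299433 counts. In U2OS the shares were 0.377%, 0.336% and 0.341% with siCtrl (29597323, 38065726 and 31525340 counts) and 0.412%, 0.418% and 0.397% with siINTS11 (31743963, 29397678 and 30743023 counts). There the siINTS11 shares lay above the siCtrl shares although the totals overlapped. The typical gene moved alike: scaled by library totals alone, the median log2 change in U2OS was 0.22 in the members and 0.22 over all genes. In U2OS-AsiSI the same scaling gave 0.40 in the members and 0.22 over all genes. The U2OS-AsiSI siINTS11 shares lay above all the others, and the totals below all the others. The highest share belonged to the library with the smallest total.

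**Figure D3:**
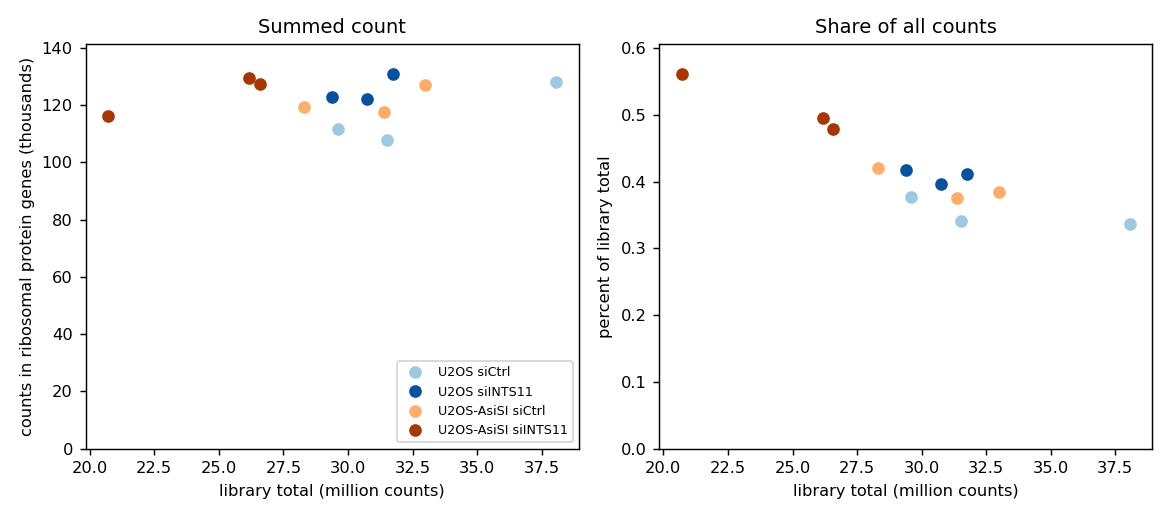
Summed counts of the 77 ribosomal protein genes (left) and their percentage of the library total (right) against the library total (horizontal axes), 1 point per library. The sums stay between 107652 and 130802 counts, while the share is highest, 0.561%, in the smallest library.

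In U2OS-AsiSI, 60 of the 72 tested members were called higher with siINTS11 than with siCtrl (edgeR's quasi-likelihood test, Benjamini-Hochberg adjusted p under 0.05 over all genes tested) and 0 lower, where 35.4% of all genes were called higher and 32.6% lower. For the count of 0, unadjusted p was under 0.05 for 0 members, and DESeq2 also called 0 lower (47 higher). The members' median log2 change was 0.21 (1.16-fold), against 0.03 over all genes. The same held for both subunits, with 24 of 29 genes of the 40S called higher (median 0.21) and 36 of 43 of the 60S (median 0.23). Nearly all changes were small, from -0.09 to 0.42, and none reached 2-fold. Beside this stands read density: of all 125 genes at 0.3 to 0.5 reads per base, 108 were called higher with a median of 0.25, and the 32 members among them were all called higher with a median of 0.23. At 0.1 to 0.3 reads per base the medians were 0.13 over 1352 genes and 0.15 over the 25 members. At 0.03 to 0.1 they were -0.07 over 5796 genes and 0.18 over the 9 members, of which 6 were called higher, so there the members lay above genes of like density. The snoRNA hosts and the other members had the same median, 0.21.

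Because the siRNA groups of this line differed in depth, the change was also fitted with the library total as a covariate over all 12 libraries, a fit chosen after seeing the data. It left 3 of the 72 members higher and 3 lower, where 25.1% of all genes were called higher and 26.4% lower, and a median change of 0.01, against 0.02 over all genes. The median standard error of a member was 0.06 in both fits. Without the covariate, the 12-library fit called 59 higher and 0 lower. A transform for a ceiling of 1 read per base also left 59 higher, with a median of 0.23. Whether that transform brings the members' counts to growth in proportion to depth was not tested. Leaving out the smallest library, U2OS-AsiSI siINTS11 replicate 2, left 34 members higher and 1 lower, with a median of 0.13. In this line all 3 siINTS11 totals lay below all 3 siCtrl totals, so within it depth and siRNA cannot be told apart.

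The largest rises in U2OS-AsiSI, after RPL27A and RPL28, were those of the stalk protein RPLP2, RPS28 and RPL35. RPLP2 was at 27.3, 28.2 and 30.3 CPM (counts scaled to a common library size, with TMM over the 12 libraries) with siCtrl and 35.1, 42.0 and 35.1 with siINTS11. RPL35, which lies beside the exit of the peptide tunnel, was at 42.0, 45.8 and 50.3 against 54.6, 64.6 and 55.2 CPM. RPS28, of the 40S, was at 16.0, 17.3 and 18.6 against 20.6, 23.8 and 22.2 CPM. In all 3 genes the siRNA groups did not overlap, and replicate 2, the smallest library, was the highest. The log2 changes were 0.39 (SE 0.06, adjusted p = 3.06e-06) for RPLP2, 0.34 (SE 0.06, adjusted p = 1.55e-05) for RPL35 and 0.36 (SE 0.07, adjusted p = 2.63e-05) for RPS28. With the covariate they were 0.16 (adjusted p = 0.0507), 0.12 (adjusted p = 0.13) and 0.19 (adjusted p = 0.0523), none past the threshold. At the other end, RPS20 and RPL31 stood at 0.03 (SE 0.06, adjusted p = 0.65) and 0.06 (SE 0.05, adjusted p = 0.264), and their groups overlapped. Among the densest members, RPL10A, RPLP1, RPS27, RPL13A and RPL3 were called higher, by 0.23 (RPL13A) to 0.28 (RPS27), and lay between -0.02 (RPL13A) and 0.03 (RPS27) with the covariate.

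In U2OS, where the totals of the 2 siRNA groups overlapped (29597323 to 38065726 counts for siCtrl, 29397678 to 31743963 for siINTS11), members showed no common shift. The test called 9 of 72 higher and 4 lower, against 34.5% and 32.4% of all genes, with a median of 0.02 in the members and 0.02 over all genes. Among the 9 were RPL12, RPS28, RPS15A, RPL39, RPS4X, RPL27A, RPL28 and RPL30, and all 9 were also called higher in U2OS-AsiSI. The 4 were RPL34, RPS29, RPL7A and RPL37A, none of them called in U2OS-AsiSI. As 60 of the 72 members were called higher and 0 lower in U2OS-AsiSI, these overlaps do not show how far the lines agree. The share of all genes called alike in both lines is not given here. With the covariate, 7 were higher and 7 lower, against 35.6% and 28.2% of all genes, with a median of -0.01 in the members and 0.05 over all genes. These directions are relative to the typical gene: scaled by library totals alone, the median of all genes moved up by 0.20, and 64 members were called higher and 0 lower. The median was then 0.22 in the members and 0.22 over all genes. The share of all genes called under that scaling is not given here, so the 64 cannot be set against it. The counts also turned on single libraries. Without U2OS siCtrl replicate 1, 22 were higher and 1 lower. Without siCtrl replicate 2, the deepest library, 5 were higher and 7 lower, and without siINTS11 replicate 1, 5 were higher. In bulk RNA such as this, fewer cells making a transcript and less transcript per cell cannot be told apart.

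**Figure D4:**
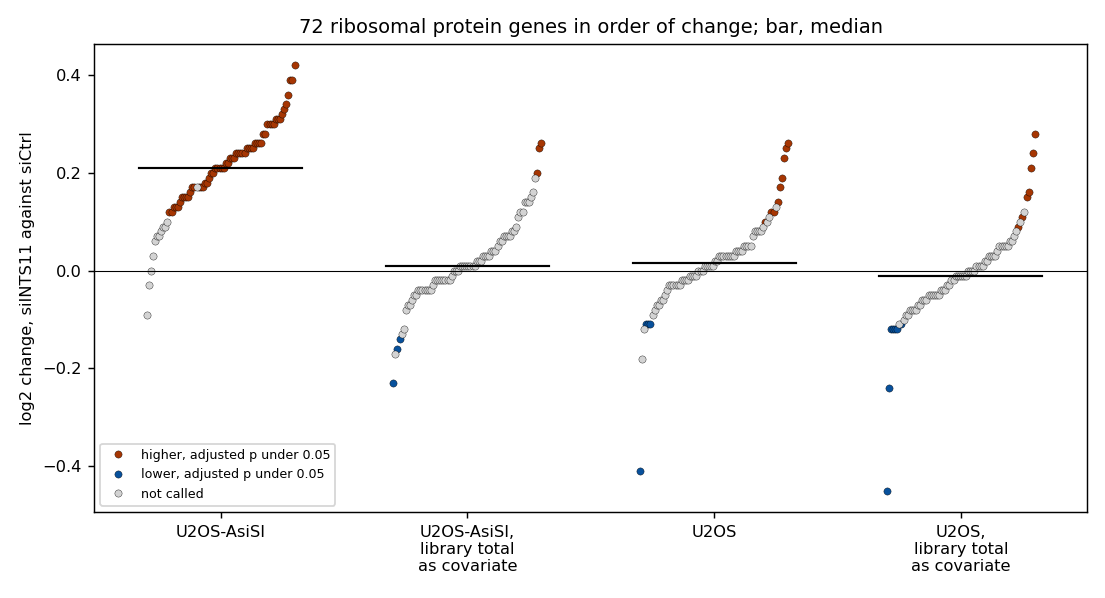
Log2 change with siINTS11 (vertical axis) for the 72 tested ribosomal protein genes, in order of change, in each line as fitted on its own 6 libraries and with the library total as a covariate over all 12 libraries; colours mark calls at an adjusted p under 0.05 and bars the medians. The median in U2OS-AsiSI is 0.21 without and 0.01 with the covariate.

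With the covariate, 6 of the 72 tested members had the same call in both lines: RPL27A, RPL28 and RPL39 were higher, and RPL34, RPL37A and RPS29 lower. Of all genes, this fit called 25.1% higher and 26.4% lower in U2OS-AsiSI, and 35.6% and 28.2% in U2OS. The share of all genes called alike in both lines is not given here, so the 6 cannot be set against it. CPM are given below for replicates 1 to 3 of each group. All 3 rising genes belong to the large subunit, but so do RPL34 and RPL37A, and 43 of the 72 tested members.

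RPL27A (chr11:8682788-8714759, plus strand), a core 60S protein whose introns hold SNORA3A and SNORA3B, was at 107, 92.1 and 95.0 CPM with siCtrl and 114, 120 and 118 with siINTS11 in U2OS. In U2OS-AsiSI it was at 93.7, 95.3 and 104 with siCtrl and 125, 140 and 127 with siINTS11. Every siINTS11 library lay above every siCtrl library of its line. The log2 change was 0.23 (SE 0.05, adjusted p = 2.65e-05) in U2OS and 0.42 (SE 0.05, adjusted p = 1.32e-08) in U2OS-AsiSI. With the covariate it was 0.21 and 0.25.

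RPL28 (chr19:55385345-55403250, plus strand), a 60S protein that budding yeast lacks, was at 49.4, 45.9 and 45.9 CPM with siCtrl and 58.7, 57.9 and 54.9 with siINTS11 in U2OS. In U2OS-AsiSI it was at 50.4, 54.3 and 58.0 with siCtrl and 65.7, 76.8 and 70.7 with siINTS11. The siRNA groups did not overlap in either line. The log2 change was 0.25 (SE 0.05, adjusted p = 6.29e-06) in U2OS and 0.39 (SE 0.06, adjusted p = 3.21e-07) in U2OS-AsiSI, and 0.24 and 0.26 with the covariate.

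RPL39 (chrX:119786504-119791630, minus strand), a small protein of the exit tunnel, was at 24.3, 24.6 and 22.1 CPM with siCtrl and 29.6, 28.5 and 28.8 with siINTS11 in U2OS. In U2OS-AsiSI it was at 29.4, 28.2 and 29.6 with siCtrl and 34.2, 36.7 and 32.6 with siINTS11. The siRNA groups again did not overlap. The log2 change was 0.26 (SE 0.06, adjusted p = 9.81e-05) in U2OS and 0.25 (SE 0.06, adjusted p = 0.000255) in U2OS-AsiSI, and 0.28 and 0.20 with the covariate. In each line, RPL27A, RPL28 and RPL39 kept their direction and their call under all 16 alternatives run.

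RPS29 (chr14:49570984-49599164, minus strand), a zinc-binding protein of the 40S head, was at 147, 139 and 139 CPM with siCtrl and 136, 133 and 132 with siINTS11 in U2OS. In U2OS-AsiSI it was at 148, 149 and 158 with siCtrl and 137, 157 and 134 with siINTS11. The groups did not overlap in U2OS and did in U2OS-AsiSI. The log2 change was -0.11 (SE 0.04, adjusted p = 0.0119) in U2OS and -0.09 (SE 0.05, adjusted p = 0.136) in U2OS-AsiSI, and -0.12 and -0.23 with the covariate. RPL37A was at 113, 106 and 108 CPM with siCtrl and 103, 104 and 101 with siINTS11 in U2OS, and at 108, 105 and 113 against 103, 115 and 101 in U2OS-AsiSI. Its log2 change was -0.11 (SE 0.04, adjusted p = 0.0123) in U2OS and -0.03 (SE 0.05, adjusted p = 0.631) in U2OS-AsiSI, and -0.12 and -0.16 with the covariate. RPL34, another 60S protein, was at 88.6, 81.2 and 84.5 against 80.3, 80.6 and 79.0 CPM in U2OS, and at 88.8, 86.2 and 96.5 against 88.1, 96.2 and 86.6 in U2OS-AsiSI. Its log2 change was -0.11 (SE 0.04, adjusted p = 0.0165) in U2OS and 0.00 (SE 0.05, adjusted p = 0.991) in U2OS-AsiSI, and -0.12 and -0.14 with the covariate. The lower calls of these 3 genes in U2OS were lost without U2OS siCtrl replicate 1, at adjusted p = 0.0942 for RPS29, 0.0838 for RPL37A and 0.125 for RPL34. They were also lost with a minimum mean count of 50 (adjusted p = 0.095 to 0.122) and in the common fit of 12 libraries (adjusted p = 0.106 to 0.126). Library totals alone turned all 3 to 0.09, which made RPS29 (adjusted p = 0.0273) and RPL37A (adjusted p = 0.0364) higher calls. Each gene kept its direction and call in 12 of 16 alternatives. In U2OS-AsiSI the lower calls were made only in the fit with the covariate, except that RPS29 was also lower without siINTS11 replicate 2 (-0.16, SE 0.05, adjusted p = 0.00651), and the siRNA groups overlapped in CPM.

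**Figure D5:**
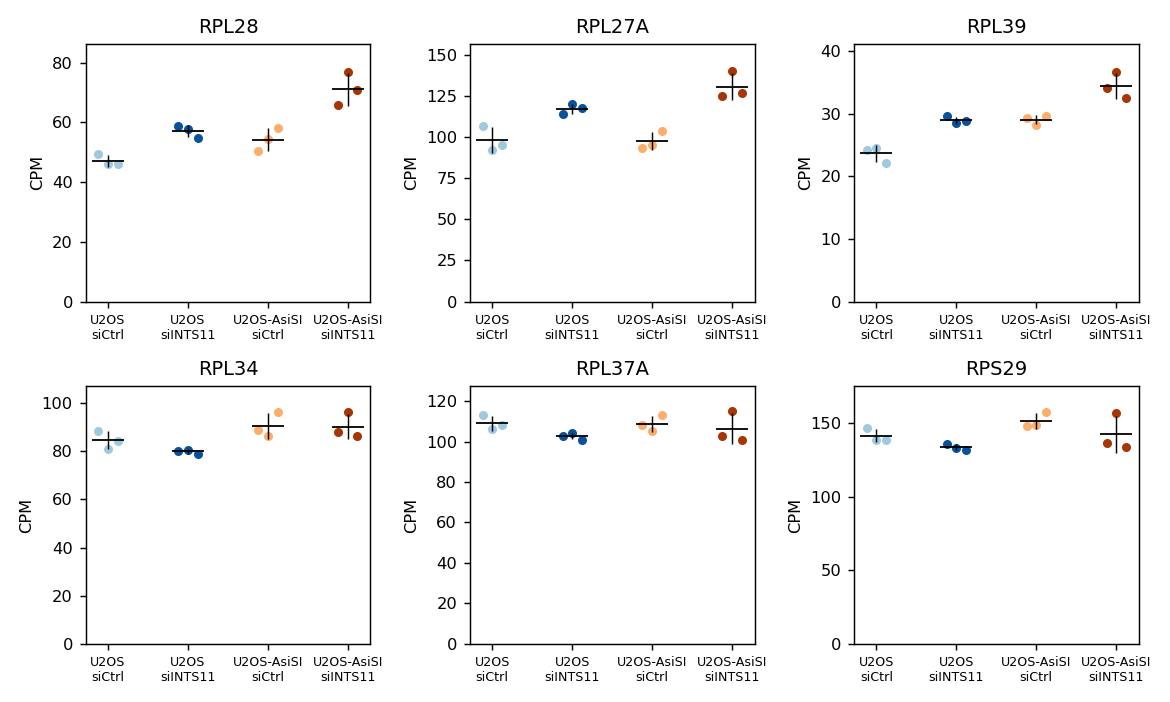
CPM (vertical axes, from 0) of the 6 ribosomal protein genes with the same call in both lines when the library total was a covariate; coloured points are libraries, black marks and bars means and SDs of 3 per group. RPL28, RPL27A and RPL39 are higher with siINTS11 in every library of each line, while RPL34, RPL37A and RPS29 are lower in U2OS and overlap in U2OS-AsiSI.

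RPL7A, a 60S protein whose introns hold SNORD24 and 3 SNORD36 genes, had the lowest change in U2OS. It was at 6.88, 5.51 and 5.43 CPM with siCtrl and 4.05, 5.3 and 4.28 with siINTS11 there, and at 6.62, 5.48 and 5.96 against 6.04, 6.87 and 6.27 in U2OS-AsiSI. The groups did not overlap in U2OS and did in U2OS-AsiSI. The log2 change was -0.41 (SE 0.11, adjusted p = 0.00155) in U2OS and 0.09 (SE 0.10, adjusted p = 0.449) in U2OS-AsiSI, from raw counts of only 134 to 195 per library. The difference between the lines, 0.47 (SE 0.16), did not pass the test (adjusted p = 0.0873). RPS28, a 40S protein at the mRNA exit channel, was called higher in U2OS by 0.19 (SE 0.07, adjusted p = 0.0158). Its call was kept in 13 of 16 alternatives, whose adjusted p reached 0.101. RPS18 changed by -0.18 (SE 0.10) in U2OS, which did not pass the test (adjusted p = 0.113). Of the genes fixed by role, 7 had these values in U2OS: RPLP0 -0.05 (SE 0.05), RPS6 0.05 (SE 0.05), RPL5 -0.00 (SE 0.04), RPL11 -0.02 (SE 0.05), RPS19 0.04 (SE 0.04), RPS14 0.03 (SE 0.04) and RPS26 0.02 (SE 0.06), none past the test. Among the rest, RPS4X was called higher in U2OS at 0.10, and RPLP2 stood at 0.11 without a call. RPLP1, RPL3, RPL41, RPS27A and RPSA lay between -0.02 (RPL3) and 0.04 (RPLP1) there. In U2OS-AsiSI the 7 were called higher, by 0.15 (RPL5) to 0.26 (RPS19), and RPLP2 by 0.39. With the covariate none of the 7 was, at -0.04 (RPLP0) to 0.06 (RPS19).

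Next, the siINTS11 change was compared between the lines with an interaction term in a fit of all libraries. It was larger in U2OS-AsiSI for 68 of 72 members, with a median difference of 0.15 log2, against -0.05 over all genes. At 0.3 to 0.5 reads per base the median was 0.18 over all 120 genes, of which 116 were above 0, and 0.19 over the 32 members. Above 0.5 reads per base it was 0.24 over all 58 genes. At 0.1 to 0.3 it was 0.02 over 1398 genes and 0.08 over the 27 members. At 0.03 to 0.1 it was -0.06 over 6045 genes and 0.19 over the 8 members, all 8 above 0. In that bin the members lay above genes of like density. Only 2 members passed the test, RPS15 and RPL18, both larger in U2OS-AsiSI, and 0 were smaller, against 0.762% and 3.1% of all genes. At an unadjusted p under 0.05 the counts were 30 larger and 0 smaller, and DESeq2 called 2 larger and 0 smaller at the adjusted threshold. RPS15, a protein of the 40S head near the decoding site, was at 23.4, 19.8 and 20.5 CPM with siCtrl and 21.4, 22.0 and 20.3 with siINTS11 in U2OS, and at 21.6, 22.2 and 23.9 against 26.7, 30.3 and 27.6 in U2OS-AsiSI. RPL18, of the 60S, was at 43.8, 37.4 and 39.8 against 41.3, 41.6 and 41.2 CPM in U2OS, and at 40.6, 42.4 and 44.7 against 49.3, 56.8 and 51.9 in U2OS-AsiSI. The siRNA groups of both genes overlapped in U2OS and not in U2OS-AsiSI. The difference was 0.32 (SE 0.09, adjusted p = 0.0431) for RPS15 and 0.26 (SE 0.08, adjusted p = 0.0476) for RPL18. With the library total as a covariate, 0 members were called larger and 0 smaller by edgeR, against 0.288% and 1.25% of all genes, with 2 and 0 at an unadjusted p under 0.05, and the median difference was 0.02. RPS15 then stood at 0.20 (SE 0.08, adjusted p = 0.252) and RPL18 at 0.15 (SE 0.07, adjusted p = 0.293). Both calls were also lost without U2OS-AsiSI siINTS11 replicate 2, and the count ran from 0 to 6 over the 12 libraries left out in turn. It was 21 with no filter on low counts, 4 with a minimum mean count of 50, 1 with library totals alone and 0 with a replicate block.

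Under siCtrl, 18 of 72 members were called higher in U2OS-AsiSI than in U2OS and 0 lower, against 17.8% and 17.2% of all genes, with a median log2 difference of 0.11 in members and 0.01 over all genes. Of all 1560 genes over 0.1 reads per base, 37.8% were called higher with a median of 0.10. Of the 1197 of these with spans in the members' range, 46.4% were, with a median of 0.12, against 25% of the members. These sets were less dense than the members (medians 0.142 and 0.14 against 0.283 reads per base). At 0.1 to 0.3, 40.7% of 1397 genes and 44.4% of the 27 members were called higher (medians 0.11 and 0.14). At 0.3 to 0.5, 18.7% of 107 genes and 16.1% of the 31 members were (medians 0.08 and 0.09). At 0.03 to 0.1 the medians were 0.04 over 6092 genes and 0.10 over the 9 members. RPL39 differed most, at 0.30 (SE 0.06, adjusted p = 0.000197), followed by RPLP2 at 0.22 (SE 0.07, adjusted p = 0.00851), RPL28 at 0.21 (SE 0.05, adjusted p = 0.00207) and RPS15A, a 40S protein, at 0.20. RPS4X, the X-linked 40S gene with a copy on the Y chromosome, was higher by 0.18 (SE 0.04, adjusted p = 0.00172). With the covariate 8 stayed higher and 0 were lower, against 16.1% and 15.5% of all genes, and the 8 included RPLP2, RPL24, RPS24, RPS15A, RPL39, RPS4X and RPL28. The count of 18 rested on single libraries, being 54 without U2OS siCtrl replicate 1, 6 without U2OS siCtrl replicate 2 and 5 without U2OS-AsiSI siCtrl replicate 3. Neither edgeR nor DESeq2 called a member lower in this comparison, and 0 had an unadjusted p under 0.05 in that direction.

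Under siINTS11, 70 of 72 members were called higher in U2OS-AsiSI than in U2OS and 0 lower, against 22.2% and 21.4% of all genes, with a median of 0.30 and 0.01 over all genes. Dense genes as a whole were also higher: at 0.3 to 0.5 reads per base, 113 of all 135 genes were called higher (83.7%) with a median of 0.31, against 32 of 32 members with a median of 0.33. Over 0.1 reads per base, 65.3% of all 1621 genes were called higher, with a median of 0.23. At 0.03 to 0.1 the medians were 0.04 over 5838 genes and 0.29 over the 7 members. RPL37A (0.08, SE 0.05) and RPS25 (0.28, SE 0.15) were the 2 not called. DESeq2 called 68 higher and 0 lower, and 0 members were lower at an unadjusted p under 0.05. RPLP2, the stalk protein, was at 27.3, 27.4 and 26.5 CPM in U2OS siINTS11 and 35.1, 42.0 and 35.1 in U2OS-AsiSI siINTS11, without overlap, a log2 difference of 0.50 (SE 0.06, adjusted p = 3.46e-09). Here too the totals of the 2 groups did not overlap, from 29397678 counts up in U2OS and up to 26579035 in U2OS-AsiSI. With the covariate, 7 members were higher and 0 lower, against 7.79% and 13.7% of all genes, with a median of 0.07 in the members and -0.03 over all genes. The 7 were RPL8, RPL18, RPS15, RPLP2, RPL39, RPL28 and RPL36, and RPLP2 stood at 0.25 (SE 0.07, adjusted p = 0.00909). These comparisons share libraries with those above and are not independent of them.

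Other genes of the ribosome and its supply were counted for comparison. Their counts stand beside 35.4% higher and 32.6% lower of all genes in U2OS-AsiSI and 34.5% and 32.4% in U2OS, and several are near those shares. FAU, which encodes a ribosomal protein as a fusion with a ubiquitin-like sequence, rose in U2OS-AsiSI by 0.37 (SE 0.08, adjusted p = 0.000197) and was at 0.02 (SE 0.08, adjusted p = 0.825) in U2OS. Of 8 tested paralogs outside the naming rule, 3 were higher in each line and 0 lower, led by RPL3L, the muscle paralog of RPL3, at 2.21 (SE 0.16, adjusted p = 1.7e-13) in U2OS-AsiSI and 1.78 (SE 0.13, adjusted p = 1.25e-15) in U2OS from a mean of 0.008 reads per base. RPL26L1 rose by 0.61 (SE 0.07) and 0.62 (SE 0.06) in the same order. Of 17 translation factors and similar genes with terminal oligopyrimidine mRNAs, 7 were higher and 2 lower in U2OS-AsiSI and 1 higher and 4 lower in U2OS. Ribosome assembly factors gave 12 higher and 2 lower of 29, and 18 higher and 2 lower. Genes of RNA polymerase I gave 3 and 3 of 11, and 6 and 2. Known regulators gave 3 and 4 of 8, and 3 and 3, with MYC up by 0.33 (SE 0.05) in U2OS-AsiSI and MTOR down in both lines, at -0.30 (SE 0.04) and -0.34 (SE 0.04). MYC averaged 0.321 reads per base. Of all 125 genes at 0.3 to 0.5 reads per base, 86.4% were called higher in U2OS-AsiSI, with a median of 0.25. Mitochondrial ribosomal protein genes, which serve another ribosome, gave 25 higher and 17 lower of 67 in U2OS-AsiSI and 21 and 8 of 68 in U2OS.

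INTS11 itself was at 9.69 ± 0.7 CPM (SD, n = 3) in U2OS siCtrl and 7.37 ± 0.426 in U2OS siINTS11, a log2 change of -0.42 (SE 0.09, adjusted p = 6.08e-05). It was at 10.2 ± 0.736 and 9.28 ± 0.242 in U2OS-AsiSI, a change of -0.13 (SE 0.08, adjusted p = 0.172) that did not pass the test. An siRNA acts on finished mRNA, which TT-seq does not measure directly, so this is only a partial check of the labels. The mesenchymal markers RUNX2 (149 to 446 CPM), VIM (126 to 180) and COL1A1 (75.7 to 118) were present in every library, while COL1A2 and TWIST1 reached at most 0.459 and 0.314 CPM. The blood markers PTPRC and CD3E were at most 0.256 CPM, KRT5 at most 0.109, and EPCAM, CDH1 and PECAM1 between 0.801 and 8.43.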

How the data were processed

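TT-seq counts of 12 libraries were analysed. The authors deposited unnormalized counts, 1 value per gene, taken over the whole span, introns included (featureCounts columns, per the file headers). The submitters' processing notes name Trimmomatic 0.36, STAR 2.7, featureCounts, deepTools and the build hg38. The strand setting, the treatment of reads shared by overlapping genes and the handling of duplicates are not given in the sources used here.

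The tests were those of edgeR 4.0.16 (R 4.3.3; filterByExpr, TMM scaling, robust glmQLFit, two-sided glmQLFTest) on the 6 libraries compared, or on 12 with an interaction. The Benjamini-Hochberg adjustment ran over all genes tested, with a threshold of 0.05. SEs are the absolute log2 change over the square root of F, and intervals or floors cover counting error only. Median-of-ratios scaling, library totals, TMM on genes under 0.1 reads per base, no filter, a mean count of at least 50, a replicate block, DESeq2 1.42.0, a transform for a ceiling of 1 read per base and each library left out were alternatives. A common fit of 12 libraries and the library total as a covariate were added after seeing the data. In simulated counts, 81% of 2-fold genes were recovered for the difference between the lines (21197 genes tested) and 99% for siINTS11 in U2OS (20549 genes tested). Of 1.5-fold genes, 29% and 68% were recovered in the same order, and no member changed by as much.

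The members and gene lists were chosen with earlier results of these data known. Named members are the 5 largest changes each way per siINTS11 comparison, the 5 most and 5 least dense, up to 5 with the smallest adjusted p per comparison of the lines, and those fixed by role; RPL12, RPL30, RPL24 and RPS24 were named, within counts, after their values were seen, as were the snoRNA hosts and untested members. Promoter windows were shortened to 120 bases for printing. A few members and other listed genes are not reported here. Total transcription relative to the yeast spike-in was not analysed here.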

Additional observations from a re-analysis of the deposited data

Results flagged for a closer look

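The change with siINTS11 differed between the lines, by the interaction in edgeR, for 2 ribosomal protein genes. RPS15 changed by 0.32 log2 more in U2OS-AsiSI (SE 0.09, adjusted p = 0.0431). It was 0.32 (SE 0.06, adjusted p = 2.92e-05) there and -0.03 (SE 0.06, adjusted p = 0.727) in U2OS. RPL18 changed by 0.26 more (SE 0.08, adjusted p = 0.0476), from 0.31 (SE 0.05) in U2OS-AsiSI and 0.01 (SE 0.05) in U2OS. Over 22 alternatives each, 12 called the difference, with adjusted p from 0.00518 to 0.252 for RPS15 and from 0.00462 to 0.293 for RPL18, the largest with the library total as a covariate. With 1 library left out, 5 of 12 fits called RPS15 and 4 of 12 called RPL18. In each gene the siINTS11 libraries of U2OS-AsiSI were both highest in CPM and smallest in total, and the part of depth beyond the covariate was not tested.

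RPS27L, a paralog of RPS27 outside the naming rule and a known p53 target, differed the other way, at -0.31 (SE 0.06, adjusted p = 0.00586). It rose by 0.36 (SE 0.04, adjusted p = 5.21e-10) in U2OS and stood at 0.09 (SE 0.05, adjusted p = 0.108) in U2OS-AsiSI. The difference was called in 21 of 22 alternatives, with the covariate at -0.37 (SE 0.06, adjusted p = 0.0018), and was lost without U2OS siCtrl replicate 3 (adjusted p = 0.0656).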

How the results depend on the processing

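With the library total as a covariate, the members called higher and lower numbered 3 and 3 in U2OS-AsiSI (median 0.01) and 7 lower in U2OS, 0 in the difference (median 0.02), 8 between the lines under siCtrl and 7 under siINTS11 (median 0.07). Of the 72 changes in U2OS-AsiSI, 70 were above 0 without the covariate and 42 with it. Genes that changed sign are listed only for named members with a call in either fit. With the covariate in U2OS-AsiSI these were RPL10 (-0.04), RPL13A (-0.02), RPL34 (-0.14), RPL41 (-0.00), RPL8 (-0.04), RPLP0 (-0.04) and RPSA (-0.02). With library totals alone, the median of all genes moved up by 0.19 in U2OS-AsiSI and 0.20 in U2OS. The members' medians became 0.40 and 0.22, with 64 higher and 0 lower in U2OS, 1 in the difference and 48 between the lines under siCtrl. Under the same limit, that scaling turned RPL10A (0.20), RPL11 (0.18), RPL13A (0.17), RPL3 (0.18), RPL34 (0.09), RPL36 (0.18) and RPL37A (0.09) in U2OS. Also turned there were RPL41 (0.19), RPL5 (0.20), RPLP0 (0.15), RPS15 (0.17), RPS20 (0.13), RPS29 (0.09) and RPSA (0.19), and in U2OS-AsiSI RPL37A (0.16). A mean count of at least 50 gave 17 higher and 1 lower in U2OS and 4 in the difference. No filter gave 21 in the difference. DESeq2 gave 4 higher in U2OS and 9 between the lines under siCtrl. The ceiling transform gave 16 and 29. The common fit of 12 libraries gave 1 lower in U2OS. The cause of each was not tested. Throughout, the share of all genes called is given only for the main fits and the fit with the covariate. Member counts under the other alternatives therefore cannot be set against such a share. With a replicate block the difference had 0 members (2 without), and the other counts stayed within 1.5 times. Same-numbered replicates deviated from their group means with correlations of -0.108 to 0.137, with no comparison having all 3 above 0.1. The main fits treated them as unpaired. With 3 libraries per group, these correlations cannot show whether same-numbered replicates shared a culture or batch.

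With 1 library left out, members called higher ran from 34 to 61 in U2OS-AsiSI (0 to 1 lower), 5 to 22 in U2OS (1 to 7 lower), 0 to 6 in the difference, 5 to 54 between the lines under siCtrl and 65 to 70 under siINTS11. Member counts grew with a median slope of 0.47 on library depth; whether this compresses changes in dense members was not tested beyond the ceiling transform, which gave a median of 0.23 in U2OS-AsiSI. The shares of counts moved by less than their SD under every denominator and library left out.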
